A study of Mus musculus with 6 samples.

Results

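The genes described here make, sense, take up and export cholesterol. They comprise 32 genes, chosen by symbol from the 27381 genes on the arrays, and all 32 had a value. Of these, 18 encode enzymes of sterol synthesis, 4 sense sterols in the endoplasmic reticulum, and 10 serve uptake, efflux, esterification and movement of cholesterol within the cell. Liver RNA came from C57BL/6J mice, described in the study as wild-type males, that ate a diet with 40% of its energy from fat (palm oil), 20% from fructose, and 2% cholesterol for 32 weeks from the age of 10 weeks, as a model of non-alcoholic steatohepatitis (NASH). At week 20 the mice received 1E12 vector genomes of an adeno-associated virus into the peritoneum, either AAV-Glrx, which carries mouse Glrx (glutaredoxin) with an HA/FLAG tag behind the Serpina7 promoter that is active in hepatocytes, or AAV control, made from the empty plasmid, and the livers were taken 12 weeks later. RNA from 5 or 6 mice per group was combined into 3 pools per group (n = 3 AAV-Glrx pools and n = 3 AAV control pools), and each pool was measured on 1 Affymetrix Mouse Gene ST array. The sources do not say how the mice were shared among the pools, so a pool may hold 1 mouse or several. Both groups ate the same diet, and chow-fed livers were not analysed here, so the levels below are levels on the cholesterol-rich diet and hold no measure of what the diet did.

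Hepatocytes build cholesterol from acetyl-CoA through mevalonate, squalene and lanosterol. The pathway is governed by SREBP2, the product of Srebf2, a transcription factor that is held in the membrane of the endoplasmic reticulum. When membrane sterol is scarce, the escort protein SCAP carries SREBP2 to the Golgi apparatus, where it is cut and released to switch on the synthesis genes. When sterol is plentiful, INSIG proteins hold SCAP back and the genes are kept low. A surplus of cholesterol also yields oxysterols, which activate the nuclear receptors LXR and thereby the efflux transporters ABCA1, ABCG5 and ABCG8. In the liver, ABCG5 and ABCG8 form a dimer that secretes cholesterol into bile.

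Because SREBP2 binds sterol regulatory elements together with NF-Y and Sp1, the starts of the synthesis genes were searched for these letters. Promoter sequences (RefSeq, GRCm38.p6) were at hand for 25 of the 32 genes, as 32 windows of 300 bases that run from 250 bases before a start to 50 bases after it. Without an entry were Fdps, Fdft1, Sqle, Stard4, Soat2, Npc1 and Scarb1. Shown first are the 150 bases before the start of Hmgcs1, chosen because it held the only match to the sterol regulatory element. Next are those of Cyp51, Tm7sf2, Msmo1 and Nsdhl, which were highest in the same pool and lowest in the same pool. So were Fdps and Dhcr7, which are not shown. Last is the stretch between the divergent starts of Abcg5 and Abcg8. Capitals mark a match on either strand to the sterol regulatory element (TCACNCCAC), the NF-Y box (CCAAT) or the Sp1 box (GGGCGG), and no matches overlap in the stretches shown. The stretches are chr13:119690201-119690350 (plus strand) for Hmgcs1, chr5:4104698-4104847 (minus strand) for Cyp51, chr19:6067851-6068000 (minus strand) for Tm7sf2, chr8:64733579-64733728 (minus strand) for Msmo1, chrX:72918371-72918520 (plus strand) for Nsdhl and chr17:84683012-84683120 (plus strand) for the Abcg5 and Abcg8 gap, all upstream of the annotated starts.
Hmgcs1: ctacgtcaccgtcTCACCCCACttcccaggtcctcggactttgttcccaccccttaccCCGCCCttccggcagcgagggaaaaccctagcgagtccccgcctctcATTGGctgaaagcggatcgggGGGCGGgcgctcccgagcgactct
Cyp51: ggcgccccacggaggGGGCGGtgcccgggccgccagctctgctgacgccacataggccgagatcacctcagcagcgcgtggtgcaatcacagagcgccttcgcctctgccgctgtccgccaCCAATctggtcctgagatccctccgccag
Tm7sf2: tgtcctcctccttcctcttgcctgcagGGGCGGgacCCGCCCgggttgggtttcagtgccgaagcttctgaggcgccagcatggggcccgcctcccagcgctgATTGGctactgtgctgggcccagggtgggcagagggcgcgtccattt
Msmo1: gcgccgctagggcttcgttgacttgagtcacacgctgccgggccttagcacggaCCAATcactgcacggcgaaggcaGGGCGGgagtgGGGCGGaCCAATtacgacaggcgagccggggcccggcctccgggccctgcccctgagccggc
Nsdhl: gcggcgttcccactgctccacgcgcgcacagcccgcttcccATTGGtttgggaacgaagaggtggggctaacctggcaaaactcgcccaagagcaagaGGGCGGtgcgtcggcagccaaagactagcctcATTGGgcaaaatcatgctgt
Abcg5 and Abcg8 gap: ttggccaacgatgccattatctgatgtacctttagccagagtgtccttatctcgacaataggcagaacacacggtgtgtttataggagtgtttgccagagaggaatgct

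The sterol regulatory element was present in 1.24% of all 32851 promoter windows and in 1 of the 32 windows of these genes (3.12%). That window was of Hmgcs1, with the match at position -137 from the start. The NF-Y box was present in 37.4% of all windows and in 22 of the 32 windows of these genes (68.8%), among them those of 14 of the 15 synthesis genes with a window. The Sp1 box was present in 35.7% of all windows and in 24 of the 32 windows of these genes (75%). The 109 bases between the Abcg5 and Abcg8 starts held none of the 3. Outside that stretch both genes had an NF-Y box in a window, at position 1 for Abcg5 and at -114 for Abcg8. A match describes letters only and is not a site, and letters that are not in a window say nothing of the factor.

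The arrays held the RNA of hepatocytes, with Alb (albumin) between 12.34 and 12.41 and Ttr (transthyretin) between 11.60 and 11.73 on the log2 scale in all pools. Values ran from 0.807 to 12.9 over all genes, the array medians from 3.893 to 3.949, and the correlation of 2 arrays across genes (Pearson's r) from 0.987 to 0.991. AAV-Glrx was set against AAV control with limma, which moderates each gene's variance by empirical Bayes, and p-values were adjusted by the method of Benjamini and Hochberg over all 27381 genes. Genes with an adjusted p under 0.1 are said to pass. A single gene passed, Zbtb16, named here because no other did, which is 0.00365% of those tested. Levels below are log2 expression values, given in the order of pools 1, 2 and 3 of each group, and log2 fold changes are AAV-Glrx minus AAV control. With 3 pools against 3, no exact permutation test can reach a two-sided p below 0.1. In whole liver, fewer cells of a type and less RNA per cell cannot be told apart. Replicates are pools, and p-values measure only the spread between pools.

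No gene of sterol synthesis, sensing or transport passed the test in AAV-Glrx livers. Of the 32 genes, 12 had a higher and 20 a lower mean in AAV-Glrx than in AAV control, and the log2 fold changes lay between -0.32 and 0.30 with a median of -0.05, against a median of -0.00122 over all genes. The adjusted p lay between 0.847 and 0.996 (limma). The unadjusted p was under 0.05 in 3 genes (Sqle, Lss and Abca1), all with higher means, or 9.38% of the 32, where 5.77% of all genes lay under this limit in either direction and 2.76% were higher. The groups did not overlap in 4 genes, all higher in AAV-Glrx (Sqle, Lss, Scap and Abca1), or 12.5% of the 32, against 10.9% of all genes in either direction and 5.51% of all genes in the higher direction. In the higher direction the shares were thus above those of all genes and rest on 3 and 4 genes. In the lower direction both counts were 0. Of all 27381 genes, 824 had an unadjusted p under 0.05 (limma) with a lower mean, and 1472 were lower without overlap. With shares this small, few of 32 genes would be counted in either direction.

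The precision bounds what could have been missed. The 95% interval of the fold change (limma, not adjusted for the number of genes) lay within 1.5-fold in either direction for 26 of the 32 genes, and for 24042 of all 27381 genes. For the other members, Fdps, Sqle, Cyp51, Insig1, Insig2 and Soat1, it reached beyond. The plot of fold changes shows each gene with its interval.

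**Figure D1:**
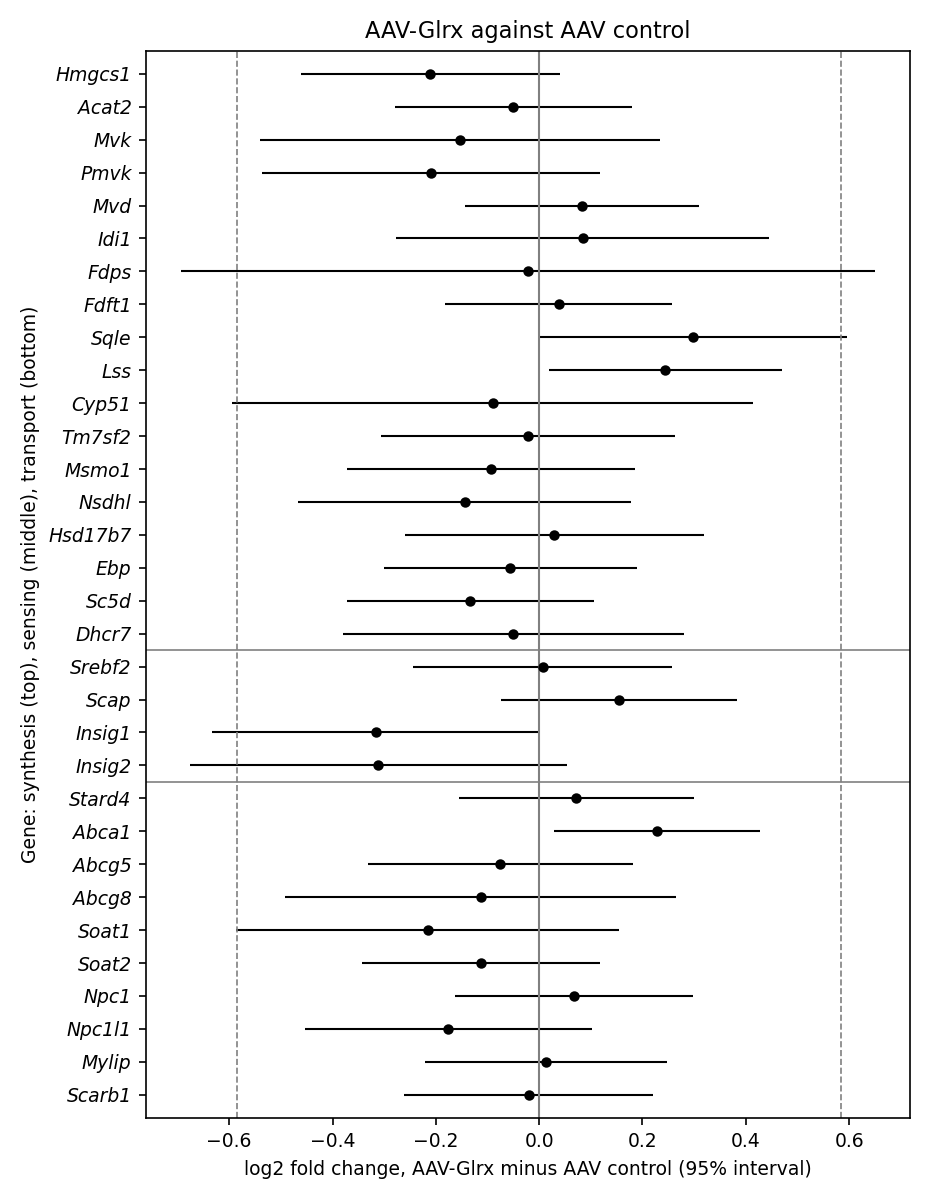
Log2 fold change (AAV-Glrx minus AAV control, x axis) of the 32 genes (y axis), with points for the estimate and lines for the 95% interval (limma, n = 3 pools per group). Dashed lines mark 1.5-fold. The estimates lie between -0.32 and 0.30, and 26 of the 32 intervals lie inside the dashed lines.

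Among the sterol sensors, Srebf2, which encodes SREBP2, was at 6.63, 6.92 and 6.81 in AAV-Glrx pools 1, 2 and 3, and at 6.81, 6.66 and 6.86 in AAV control pools 1, 2 and 3. The groups overlapped almost wholly, and the log2 fold change was 0.01 (95% interval -0.24 to 0.26). Scap, the escort of SREBP2, was at 7.23, 7.25 and 7.30 in AAV-Glrx pools and at 6.94, 7.19 and 7.19 in AAV control pools. All 3 AAV-Glrx pools lay above the AAV control pools, the nearest values being 7.23 and 7.19, and the log2 fold change was 0.15 ± 0.10 (SE, limma, adjusted p = 0.879).

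The INSIG genes had lower means in AAV-Glrx. Insig1, itself a target of SREBP2 whose product retains SCAP, was at 8.47, 8.75 and 8.77 in AAV-Glrx pools and at 9.17, 8.74 and 9.03 in AAV control pools. AAV control 2 lay just below AAV-Glrx 2 and 3, so the groups overlapped, and the means were 8.66 ± 0.17 in AAV-Glrx and 8.98 ± 0.22 in AAV control (SD, n = 3 pools each). The log2 fold change was -0.32 (standard error 0.14), or 1.24-fold lower (limma, unadjusted p = 0.0512, adjusted p = 0.858). Insig2, the relative of Insig1 that also retains SCAP, was at 7.55, 7.88 and 7.59 in AAV-Glrx pools and at 8.28, 7.95 and 7.72 in AAV control pools. AAV control 1 was the highest pool for both genes and AAV-Glrx 1 the lowest. The log2 fold change of Insig2 was -0.31 ± 0.16 (SE, limma, adjusted p = 0.859). With 1 array left out, the log2 fold change lay between -0.43 and -0.22 for Insig1 and between -0.44 and -0.17 for Insig2, below 0 in every case.

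**Figure D2:**
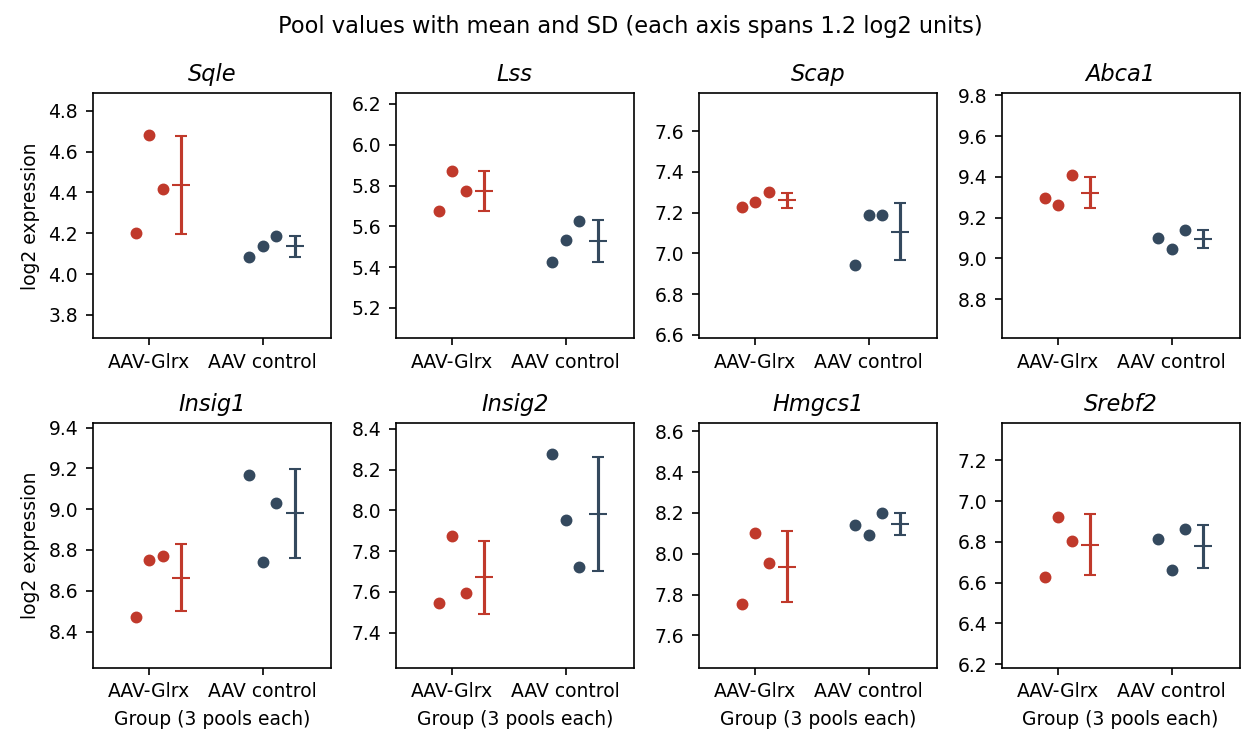
Log2 expression (y axis) of 8 genes in the pools of AAV-Glrx (left, red) and AAV control (right, blue), with dots for pools 1, 2 and 3 and bars for the mean and SD. The AAV-Glrx pools of Sqle, Lss, Scap and Abca1 all lie above the AAV control pools, while those of Insig1, Insig2, Hmgcs1 and Srebf2 overlap them.

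The early enzymes, from acetyl-CoA to farnesyl diphosphate, showed no shared direction. Acat2 condenses acetyl-CoA. Its value is uncertain, because Acat3 is a near-identical mouse copy that could share its probes. Its log2 fold change was -0.05 (95% interval -0.28 to 0.18). Hmgcs1, the synthase that makes HMG-CoA and the gene with the sterol regulatory element printed above, was at 7.75, 8.10 and 7.95 in AAV-Glrx pools and at 8.14, 8.09 and 8.20 in AAV control pools. AAV-Glrx 2 lay between the AAV control pools while the other AAV-Glrx pools lay below them all, and the log2 fold change was -0.21 ± 0.11 (SE, limma, adjusted p = 0.860). The kinases Mvk and Pmvk, which phosphorylate mevalonate and phosphomevalonate, had log2 fold changes of -0.15 ± 0.17 and -0.21 ± 0.14 (SE). Mvd, the decarboxylase, had a log2 fold change of 0.08 ± 0.10 (SE), and Idi1, the isomerase of isopentenyl diphosphate, one of 0.08 ± 0.16 (SE).

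Fdps, the farnesyl diphosphate synthase, varied most among the 32 genes. It was at 3.78, 4.90 and 4.68 in AAV-Glrx pools and at 4.17, 4.81 and 4.45 in AAV control pools. The value in AAV-Glrx 1 lay below the median of all gene means (3.922), where array probes respond weakly. AAV-Glrx pools held both its lowest and its highest value, and the means were 4.45 ± 0.60 in AAV-Glrx and 4.47 ± 0.32 in AAV control (SD, n = 3 pools each). The 95% interval of the log2 fold change, -0.69 to 0.65, was the widest of the 32.

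At the steps from squalene to lanosterol, every AAV-Glrx pool lay above every AAV control pool for both Sqle and Lss, without passing the test. Sqle, the epoxidase of squalene, was at 4.20, 4.68 and 4.42 in AAV-Glrx pools and at 4.09, 4.14 and 4.19 in AAV control pools. The lowest AAV-Glrx pool exceeded the highest AAV control pool by little, and the log2 fold change was 0.30 (standard error 0.13), or 1.23-fold higher (limma, unadjusted p = 0.0485, adjusted p = 0.858). Lss, which closes the ring to lanosterol, was at 5.68, 5.87 and 5.77 in AAV-Glrx pools and at 5.42, 5.53 and 5.63 in AAV control pools. Its log2 fold change was 0.24 (standard error 0.10), or 1.18-fold higher (limma, unadjusted p = 0.0369, adjusted p = 0.847). Fdft1, which makes squalene just before them, had a log2 fold change of 0.04 (95% interval -0.18 to 0.26).

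Of the 8 enzymes that turn lanosterol into cholesterol, 7 had a lower mean in AAV-Glrx and Hsd17b7 a higher one, none passing the test. Cyp51, the lanosterol demethylase, was at 5.24, 6.07 and 5.38 in AAV-Glrx pools and at 5.87, 5.45 and 5.64 in AAV control pools. As for Fdps, AAV-Glrx pools held both the lowest and the highest value, and the log2 fold change was -0.09 ± 0.22 (SE, limma, adjusted p = 0.972). In log2 fold change, the sterol reductase Tm7sf2 was at -0.02, the methyl oxidase Msmo1 at -0.09, and Nsdhl, which removes the carboxyl group at the same carbon, at -0.14, with standard errors from 0.12 to 0.14. By the same measure Hsd17b7, the ketoreductase, was at 0.03, the isomerase Ebp at -0.06, the desaturase Sc5d at -0.13, and Dhcr7, the reductase of 7-dehydrocholesterol, at -0.05, with standard errors from 0.10 to 0.14. The 18 synthesis genes together had a median log2 fold change of -0.05, with 12 lower and 6 higher means, and the median became 0.02 without AAV-Glrx 1.

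Among the transport genes, Abca1 was the one whose groups did not overlap. Abca1, the LXR target that loads cholesterol onto apolipoprotein A-I, was at 9.30, 9.26 and 9.41 in AAV-Glrx pools and at 9.10, 9.05 and 9.14 in AAV control pools. All AAV-Glrx pools lay above all AAV control pools, and the log2 fold change was 0.23 (standard error 0.09), or 1.17-fold higher (limma, unadjusted p = 0.0302, adjusted p = 0.847). With 1 array left out it lay between 0.18 and 0.26. For the other LXR-driven exporters the groups overlapped. Abcg5 was at 8.10, 7.82 and 8.11 in AAV-Glrx pools and at 8.10, 8.18 and 7.98 in AAV control pools. Abcg8, its partner, was at 8.59, 8.28 and 8.86 in AAV-Glrx pools and at 8.51, 8.89 and 8.66 in AAV control pools. For both partners AAV-Glrx 2 was the lowest and AAV control 2 the highest pool, and the log2 fold changes had intervals of -0.33 to 0.18 for Abcg5 and -0.49 to 0.27 for Abcg8. Mylip, an LXR target whose ubiquitin ligase marks lipoprotein receptors for degradation, had a log2 fold change of 0.01 (95% interval -0.22 to 0.25).

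The genes of esterification had lower means in AAV-Glrx. Soat2, the cholesterol esterifying enzyme of hepatocytes, was at 6.96, 6.78 and 6.84 in AAV-Glrx pools and at 7.08, 6.84 and 7.00 in AAV control pools, and the log2 fold change was -0.11 with a standard error of 0.10 (limma, adjusted p = 0.915). Soat1, the form found widely and in macrophages, was at 6.19, 6.47 and 6.68 in AAV-Glrx pools and at 6.91, 6.45 and 6.64 in AAV control pools. Its pools overlapped, and the log2 fold change was -0.22 ± 0.16 (SE, limma, adjusted p = 0.899). Npc1l1, the sterol importer best known from the intestine, was at 3.76, 3.46 and 3.85 in AAV-Glrx pools and at 3.94, 3.77 and 3.89 in AAV control pools. The means of Npc1l1 and Idi1 over all arrays lay below the median of all gene means (3.922), where array probes respond weakly. The log2 fold change of Npc1l1 was -0.18 (standard error 0.12). The other 3 genes of cholesterol movement overlapped between groups. In log2 fold change Scarb1, the receptor that takes cholesterol from high-density lipoprotein, was at -0.02 (95% interval -0.26 to 0.22), Npc1, which exports cholesterol from lysosomes, at 0.07 (-0.16 to 0.30), and Stard4, a carrier of sterol in the cytosol, at 0.07 (-0.16 to 0.30).

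Many synthesis genes were extreme in pools of the AAV-Glrx group. AAV-Glrx 2 was the highest of the 6 arrays in 10 of the 18 synthesis genes (55.6%, against 16.7% of all genes) and AAV-Glrx 1 the lowest in 8 of the 18 (44.4%, against 15.7% of all genes). Both held at once in 6 genes (33.3%, against 2.7% of all genes), Fdps, Cyp51, Tm7sf2, Msmo1, Nsdhl and Dhcr7. Within the AAV-Glrx group alone, pool 1 was lowest and pool 2 highest in 11 of the 18 (61.1%, against 15.7% of all genes). Being highest in AAV-Glrx 2 was not limited to the synthesis genes. Of the 10 other genes of SREBP processing and sterol-regulated degradation, AAV-Glrx 2 was the highest array in 6 (60%) and the lowest in 0, and of the 9 other genes of oxysterol sensing and synthesis it was the highest in 4 (44.4%). These counts per array are a description with no test, and the order of pools has no meaning beyond their names.

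Between AAV-Glrx 2 and AAV-Glrx 1, Fdps differed by 1.12 on the log2 scale (2.18-fold), Cyp51 by 0.83 (1.78-fold), Dhcr7 by 0.54, Nsdhl by 0.51, Sqle by 0.48 and Tm7sf2 by 0.41, each higher in pool 2. The Fdps difference rests on a value in AAV-Glrx 1 (3.78) below the median of all gene means (3.922). In all, 14 of the 18 synthesis genes were higher in pool 2 than in pool 1, with a median difference of 0.21, while 48.9% of all genes were. The exceptions were Mvk, which was lower in pool 2 by 0.58, Pmvk, Ebp and Fdft1. Srebf2 followed the majority, with its lowest value in AAV-Glrx 1 and its highest in AAV-Glrx 2. The pair of pools 2 and 1 was described because these were the extremes. For the other pairs of AAV-Glrx pools the median difference of the synthesis genes was 0.06 (pool 3 minus pool 1) and -0.21 (pool 3 minus pool 2), and over the 3 pairs of AAV control pools it ran from -0.05 to 0.07. The first of these lies within the range of the AAV control pairs.

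**Figure D3:**
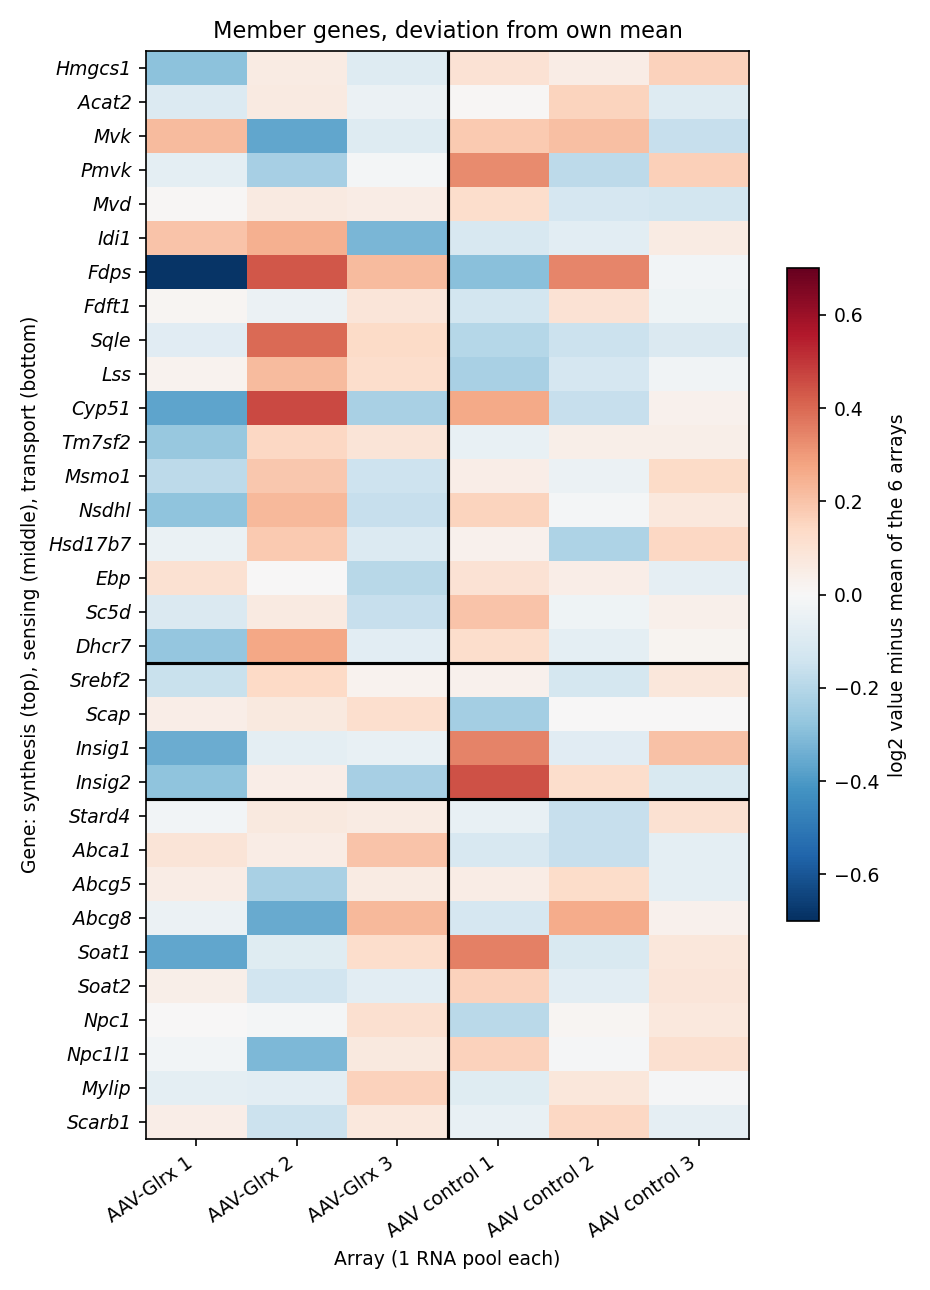
Deviation of each gene (rows) from its mean over the 6 arrays (columns, AAV-Glrx left and AAV control right), in log2 units, red for higher and blue for lower. Most synthesis genes are red in AAV-Glrx 2, the array in which 10 of the 18 were highest, and blue in AAV-Glrx 1, in which 8 were lowest.

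AAV-Glrx 2 was low for part of the transport genes. That array was the lowest of the 6 in 5 of the 10 transport genes (50%, against 18.1% of all genes), Abcg5, Abcg8, Soat2, Npc1l1 and Scarb1, and the highest in 0. The 18 other genes of sterol traffic, ester hydrolysis and lipoprotein uptake did not share this, since AAV-Glrx 2 was the lowest array in 1 and the highest in 5 of them, with a median deviation from the gene means of 0.02. Measured as the deviation from each gene's own mean, the median of the synthesis genes was -0.09, 0.17 and -0.08 in AAV-Glrx pools 1, 2 and 3 and 0.07, -0.04 and 0.02 in AAV control pools 1, 2 and 3. The median of the transport genes was -0.01, -0.11 and 0.09 in AAV-Glrx pools and -0.05, 0.00 and 0.05 in AAV control pools. The array with the highest synthesis median was thus the one with the lowest transport median.

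**Figure D4:**
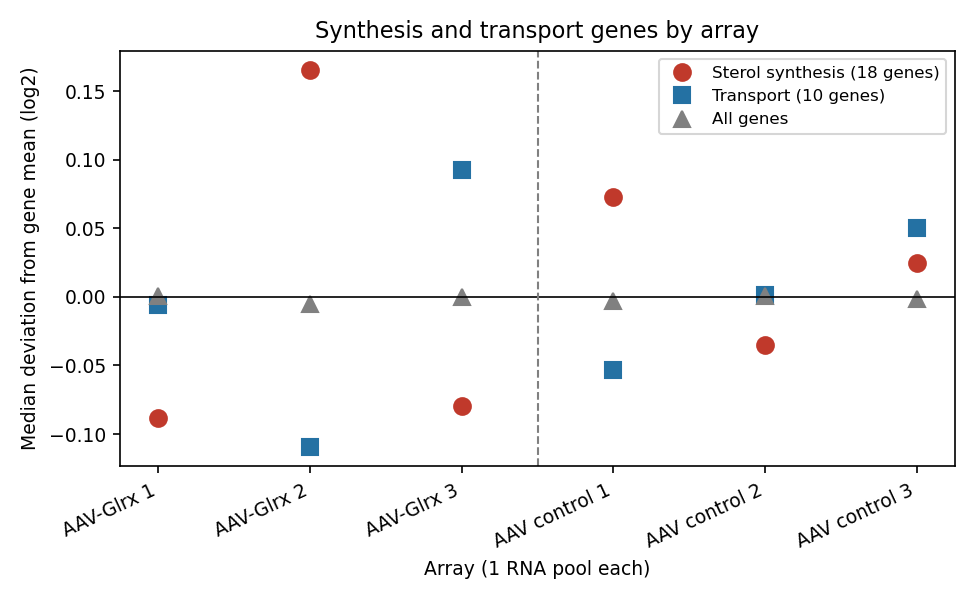
Median deviation from the gene mean (y axis, log2) in each array (x axis) for the 18 synthesis genes (red circles), the 10 transport genes (blue squares) and all genes (grey triangles). In AAV-Glrx 2 the synthesis median is 0.17 and the transport median -0.11, while all genes lie near 0.

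Other measures followed this pattern only in some of the pools, and their part in it was not tested. Glrx, the gene in the vector, was at 6.60, 7.77 and 7.24 in AAV-Glrx pools and at 6.11, 6.03 and 5.66 in AAV control pools (log2 fold change 1.27 ± 0.27, SE, limma, adjusted p = 0.847). Thus AAV-Glrx 1 held the least and AAV-Glrx 2 the most Glrx RNA of the treated pools. Of 8 marker genes of macrophages and Kupffer cells, 5 were lowest in AAV-Glrx 1 and 6 highest in AAV control 1, and they had a median deviation of -0.27, 0.14 and 0.02 in AAV-Glrx pools 1, 2 and 3 and of 0.29, -0.09 and -0.05 in AAV control pools 1, 2 and 3. Soat1, Insig1 and Insig2, like most but not all of these markers, were lowest in AAV-Glrx 1 and highest in AAV control 1. Of 6 B cell markers 5, and of 7 endothelial markers 4, were lowest in AAV-Glrx 1. In AAV-Glrx 2, where the synthesis genes were high, the median deviation was -0.18 for the B cell markers and 0.001 for the endothelial markers. In AAV-Glrx 2, where the 5 transport genes were lowest, 4 of 7 markers of lipid-associated macrophages and 2 of 6 cholangiocyte markers were lowest. None of either list lay above its own mean there, and the median deviation was -0.11 for the markers of lipid-associated macrophages and -0.18 for those of cholangiocytes. For lipid-associated macrophages this was not particular to AAV-Glrx 2. Their median deviation was -0.13 in AAV-Glrx 1, where 0 of the 7 markers lay above their own mean, and -0.16 in AAV control 3. Spp1 was counted among the markers of both lipid-associated macrophages and cholangiocytes. The B cell markers Cd79a, Ms4a1, Blk and Fcmr had means over all arrays below the median of all gene means (3.922). So had Timd4 and the cholangiocyte markers Krt19, Epcam and Cftr. Of 8 hepatocyte markers 7 were measured, and their median deviation stayed between -0.03 and 0.03 in every array. Single markers moved more. Tat (tyrosine aminotransferase) was at 10.66, 10.75 and 10.49 in AAV-Glrx pools and at 11.31, 10.98 and 11.02 in AAV control pools, without overlap, and its log2 fold change was -0.47 ± 0.12 (SE, limma, adjusted p = 0.847).

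**Figure D5:**
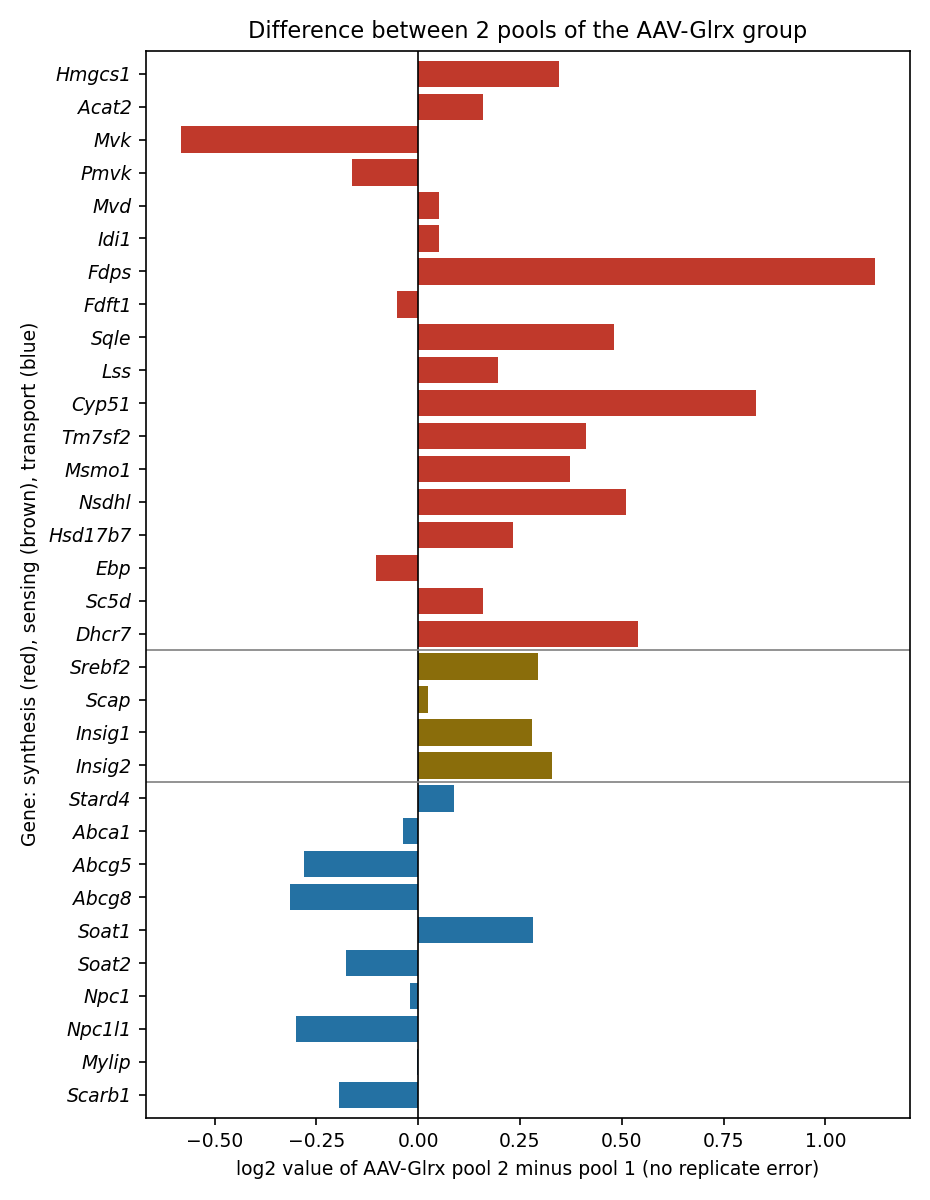
Log2 value of AAV-Glrx pool 2 minus that of pool 1 (x axis) for the 32 genes (y axis), synthesis genes in red, sensing genes in brown and transport genes in blue, as single differences without replicate error. Fdps (1.12) and Cyp51 (0.83) have the longest bars. Bars point to the left for the synthesis genes Mvk (-0.58), Pmvk, Ebp and Fdft1, and for all transport genes except Stard4 and Soat1.

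Other genes of the pathway, in lists chosen by their known roles, did not pass either. Over all genes tested, 5.77% had an unadjusted p under 0.05 and 10.9% had groups that did not overlap, and the counts below are read against these shares. Of 10 genes of SREBP processing and sterol-regulated degradation, 0 passed, and the unadjusted p was under 0.05 in 1 (10%), with a higher mean. That gene was Srebf1, which encodes the SREBP of fatty acid synthesis, at 7.84, 7.98 and 7.71 in AAV-Glrx pools and at 7.62, 7.69 and 7.46 in AAV control pools. The groups did not overlap, and the log2 fold change was 0.25 ± 0.11 (SE, limma, adjusted p = 0.858). Mbtps1, the protease that makes the first cut in SREBP2, had a log2 fold change of 0.14 ± 0.09 (SE), also with groups that did not overlap, as in 2 of the 10 genes (20%).

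Of 9 genes of oxysterol sensing and synthesis, 0 passed, and 0 lay under an unadjusted p of 0.05 by limma, and the groups overlapped in all 9. Cyp7b1, which hydroxylates oxysterols on the way to bile acids, was at 7.74, 7.76 and 6.25 in AAV-Glrx pools and at 6.80, 6.40 and 6.53 in AAV control pools. AAV-Glrx 1 and 2 lay above and AAV-Glrx 3 below all AAV control pools, and the log2 fold change was 0.67 with a standard error of 0.38 (limma, adjusted p = 0.870). Ch25h, the enzyme that makes 25-hydroxycholesterol, had a log2 fold change of -0.18 ± 0.09 (SE).

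Of 18 genes of sterol traffic, ester hydrolysis and lipoprotein uptake, 0 passed, and the unadjusted p was under 0.05 in 11.1% of them (limma). Gramd1c had the smallest p, with a higher mean. This gene, of the family that moves sterol from the plasma membrane to the endoplasmic reticulum, was at 6.77, 6.79 and 6.59 in AAV-Glrx pools and at 6.56, 6.34 and 6.40 in AAV control pools, and the log2 fold change was 0.28 with a standard error of 0.10 (limma, adjusted p = 0.847). All AAV-Glrx pools of Gramd1c lay above all AAV control pools. The groups did not overlap in 27.8% of the 18 genes, against 10.9% of all genes. Among them Stard3, Gramd1a and Lipc were lower in AAV-Glrx. Of 12 genes of the isoprenoid branches that leave the mevalonate pathway, 0 passed and 0 lay under an unadjusted p of 0.05 (limma), and the groups did not overlap in 1 (8.33%), which was Fnta. The smallest p among them belonged to Fnta, a subunit of protein prenyltransferases, with a log2 fold change of 0.16 (standard error 0.09), and to Pdss2, of ubiquinone synthesis, with -0.19 (standard error 0.12).

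Which genes lay under an unadjusted p of 0.05, and in which direction, depended on single pools and on the model. Without AAV control 1 none of the 32 genes lay under that limit, without AAV-Glrx 3 only Idi1 did, and without AAV-Glrx 2 they were Abca1, Hmgcs1, Insig2 and Nsdhl, of which the last 3 were lower. Without AAV control 2 they were Insig1 and Pmvk, both lower. With all arrays kept, Insig1 (lower) was among them with array weights, after a further quantile normalization and with brighter genes alone, and with an intensity trend they were Abca1 and Lss (higher) and Hmgcs1 and Insig1 (lower). The sign of the log2 fold change changed in 15 of the 32 genes when 1 array was left out, and did not in the other 17, which include Sqle, Lss, Scap, Abca1, Insig1 and Insig2.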

How the data were processed

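Whole-liver RNA was hybridized to Affymetrix Mouse Gene ST arrays. The deposited values are on the log2 scale, 1 per Entrez gene, and the authors made them by the Robust Multiarray Average with Brainarray gene definitions (affy 1.61.0 and R 3.6.0 in the submitters' processing notes). Quantile normalization within that method hides a shift of most genes in 1 direction. No source used here names a genome build for the probes. Samples were grouped by their titles. Symbols came from the platform annotation (26794 of 27381 genes), and Acat2, Soat1 and Soat2 were named by Entrez ID from RefSeq.

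A limma model (version 3.58.1, R 4.3.3) without covariates was fitted to all 27381 genes, none filtered. Benjamini-Hochberg adjustment ran over all of them, with a threshold of 0.1. The steps were tested on simulated data. The number of arrays limits the precision. The members and the gene lists were chosen with earlier results of these data known. Pool values are given for 10 genes central to the pathway, for members with an unadjusted p under 0.05 or groups that do not overlap, and for the 4 members with the largest SD, and the 2 genes with the smallest p are named from each other list. A single gene that this rule names is not reported here. Alternatives were weights per array, a block for the replicate number, an intensity trend or robust prior, median centring, a further quantile normalization, a limit to brighter genes, each array left out, and other thresholds. No source used here gives scan dates, and batches were not tested.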

Additional observations from a re-analysis of the deposited data

How the results depend on the processing

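None of the 32 sterol genes passed under any alternative (lowest adjusted p = 0.673, limma). Of 414 member values over 13 alternatives, 390 kept their sign and 24 did not. Outside the fits with an array left out, 1 sign changed, that of Srebf2 with array weights (-0.012). With an array left out, the log2 fold changes of the 15 genes that changed sign ranged from -0.13 to 0.020 for Abcg5, -0.25 to 0.036 for Abcg8, -0.11 to 0.016 for Acat2, -0.34 to 0.072 for Cyp51, -0.20 to 0.074 for Dhcr7, -0.12 to 0.028 for Ebp, -0.017 to 0.099 for Fdft1, -0.24 to 0.32 for Fdps, -0.072 to 0.11 for Hsd17b7, -0.020 to 0.27 for Idi1, -0.064 to 0.055 for Mylip, -0.0089 to 0.12 for Npc1, -0.062 to 0.049 for Scarb1, -0.062 to 0.086 for Srebf2 and -0.10 to 0.11 for Tm7sf2. The median of the 18 synthesis genes lay between -0.097 and 0.024 with an array left out and between -0.06 and -0.03 otherwise. The members at an unadjusted p under 0.05 numbered 0 to 4 with an array left out and 2 to 4 otherwise.

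Of all genes, 0 passed after another quantile normalization, 0 with the replicate block and 0 at an adjusted p under 0.05, and 0 to 2 with an array left out (0 without AAV-Glrx 1, AAV-Glrx 3, AAV control 2 or AAV control 3, and 2 without AAV control 1). The deviations of same-numbered pools from their group means correlated across genes at -0.0361, -0.171 and 0.0205, and those of unlike-numbered pools between -0.14 and 0.178. Deviations within 3 pools sum to 0, so these values cannot settle whether the replicate numbers pair the pools. With the replicate block 2 members, Lss and Sqle, lay under an unadjusted p of 0.05 (limma). After median centring, the synthesis genes that were lowest in AAV-Glrx 2 numbered 1, in AAV control 2 they numbered 3 and in AAV control 3 they numbered 0, against 2, 1 and 1 as deposited, and after another quantile normalization 2 were lowest in AAV control 2. In both settings 10 genes were highest in AAV-Glrx 2, and 8 and 7 were lowest in AAV-Glrx 1. The cause of these shifts was not tested.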
